A study of Drosophila sechellia and Drosophila melanogaster and Drosophila simulans with 18 samples.

Results

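The *Obp99* genes, *Obp99a*, *Obp99b*, *Obp99c* and *Obp99d*, are 4 odorant-binding protein genes that lie close together in the genomes of the fruit flies *D. melanogaster*, *D. sechellia* and *D. simulans*. They were taken by symbol, and each of the 3 species' tables lists all 4, among 17649 genes for *D. melanogaster*, 15372 for *D. simulans* and 17273 for *D. sechellia*. The group was selected on the L-DOPA and control values of these same tables, so its changes on L-DOPA are given as a description, without a test. RNA was extracted from whole adult females that had fed for 24 hr on food with 10 mg/ml L-DOPA, a precursor of dopamine that is abundant in the fruit on which *D. sechellia* specializes, or on control food. The flies were collected within days of eclosion and came from 1 strain per species, labelled 14021-0231.36 (*D. melanogaster*), 14021-0251.195 (*D. simulans*) and 14021-0428.25 (*D. sechellia*). Each species had 3 libraries from L-DOPA food and 3 from control food, 18 in all, with 10 pooled flies per library. With 1 strain per species, strain and species cannot be told apart.

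Odorant-binding proteins are small secreted proteins. In insect sensilla they fill the fluid around the olfactory and taste neurons, where they bind and carry hydrophobic molecules. Several members of the family are also made outside the sense organs, and in *D. melanogaster* the *Obp99b* gene is known for male-biased expression in fat cells of the head. Since whole flies were sequenced, fewer cells of a type and less RNA per cell cannot be told apart.

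Expression was read as FPKM, fragments scaled to gene length and to the size of the library, for which the authors' Cuffdiff run combined the 3 libraries of a food into 1 value. The tables therefore hold no spread between libraries and no depth, and whether a difference exceeds the spread between libraries was not tested. Changes are given as log2 ratios of the FPKM on L-DOPA to that on control food, and changes of at least 1.5-fold in either direction (0.58 on the log2 scale) are described as past the fold limit. Counts over genes use those that reached an FPKM of 1 on each of the foods.

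The labelled sex and tissue were checked against marker genes. In *D. melanogaster* all 15 listed yolk and eggshell genes were above an FPKM of 1, with *Yp1*, which encodes a yolk protein, the highest at 7290 on L-DOPA and 8311 on control food. Of 21 male reproductive genes in that table none reached an FPKM of 1, and 12 were listed at 0 on both foods. The *D. simulans* and *D. sechellia* tables name fewer genes, but *Yp2*, another yolk protein gene, was at 22707 on L-DOPA and 16329 on control food in *D. simulans*, and at 6728 on L-DOPA and 11520 on control food in *D. sechellia*. Of the male genes named there, the highest was *Acp62F*, an accessory gland protein gene. It was at 0.531 on L-DOPA and 0.134 on control food in *D. simulans*, and in *D. sechellia* at 1.35 on L-DOPA and listed at 0 on control food.

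The cluster has the same gene order in every table, *Obp99a*, *Obp99c*, *Obp99d* and *Obp99b*. Its length is 45.2 kb in *D. melanogaster*, 44.4 kb in *D. sechellia* and 45.4 kb in *D. simulans*. In *D. melanogaster* (BDGP6, chromosome 3R), *Obp99a* (FBgn0039678) runs from 29671657 to 29672334 on the forward strand and has 2 exons. Its open reading frame encodes 142 residues, and its 5′ UTR of 59 bases lies in the first exon. *Obp99c* (FBgn0039682) is annotated on the reverse strand from 29685736 to 29689311, while the table lists it with the span of a group of overlapping genes, from 29682503 to 29689311. Its 2 annotated transcripts share the last exon and differ in the first, and they encode 151 and 61 residues. *Obp99d* (FBgn0039684) is a gene of 1 exon on the forward strand, from 29714505 to 29715004, and encodes 137 residues. *Obp99b* (FBgn0039685) lies on the reverse strand from 29716254 to 29716896 and encodes 149 residues. The exons of *Obp99a*, *Obp99b* and *Obp99d* overlap those of no other annotated gene. The last exon of *Obp99c* shares 23 bases with *Gycalpha99B*, a guanylyl cyclase subunit gene on the opposite strand whose own FPKM was 4.99 on L-DOPA and 4.62 on control food. Whether the counting used strand is not given in the sources used here, so reads from those bases could have come from either gene.

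In *D. simulans* (ASM75419v3, chromosome 3R), *Obp99a* (FBgn0192881) is listed from 24855119 to 24855743 and *Obp99b* (FBgn0189234) from 24899911 to 24900502. There too the table gives *Obp99c* (FBgn0189239) the span of such a group, from 24865960 to 24870337, and likewise *Obp99d* (FBgn0192886), from 24896864 to 24898980. In *D. sechellia* (dsec_caf1, scaffold_4), *Obp99a* (FBgn0263699) is listed from 4352231 to 4352727, *Obp99c* (FBgn0167167) from 4366312 to 4367221, *Obp99d* (FBgn0167742) from 4394424 to 4394831 and *Obp99b* (FBgn0263698) from 4396229 to 4396678. The span of *Obp99a* is 497 bases in *D. sechellia*, 625 in *D. simulans* and 678 in *D. melanogaster*, and that of *Obp99b* is 450, 592 and 643 bases. Since FPKM divides by gene length and the tables were normalized separately, levels are ordered within a table and only set side by side between species.

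*Obp99c* was the most abundant of the 4 genes in *D. melanogaster* and *D. simulans*. In *D. melanogaster* its FPKM was 1643 on L-DOPA and 1374 on control food, against 417 and 242 for *Obp99a* and 165 and 99.3 for *Obp99b* on the same foods. The level of *Obp99c* was thus 3.94 times that of *Obp99a* on L-DOPA and 5.68 times on control food. In *D. simulans* the order was the same, with *Obp99c* at 3185 on L-DOPA and 2477 on control food. *Obp99a* was at 688 on L-DOPA and 914 on control food, and *Obp99b* at 316 on L-DOPA and 223 on control food. By FPKM, *Obp99c* ranked 104th in the *D. simulans* table on L-DOPA and 130th on control food. It ranked 134th and 152nd in *D. melanogaster* on the same foods, and 302nd and 293rd in *D. sechellia*.

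The order was another one in *D. sechellia*. On control food the 3 abundant genes were close to each other, with *Obp99b* at an FPKM of 1474, *Obp99c* at 1339 and *Obp99a* at 1246. On L-DOPA, *Obp99c* stood highest at 976, *Obp99a* was at 569 and *Obp99b* at 508. *Obp99b* took 24.8% of the summed FPKM of the 4 genes on L-DOPA and 36.3% on control food in *D. sechellia*, whereas it took 7.41% and 5.79% in *D. melanogaster* and 7.54% and 6.17% in *D. simulans*. These shares do not depend on how each table was scaled, but they do depend on the gene lengths used.

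*Obp99d* was at or near 0 in every table. Its FPKM was 0.719 on L-DOPA and 0.753 on control food in *D. melanogaster*, and 0.1005 on L-DOPA and 0.0838 on control food in *D. simulans*. It is listed at 0 on both foods in *D. sechellia*. It did not reach the FPKM minimum in any species and is left out of the counts that follow, which cover 3 of the 4 members.

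**Figure D1:**
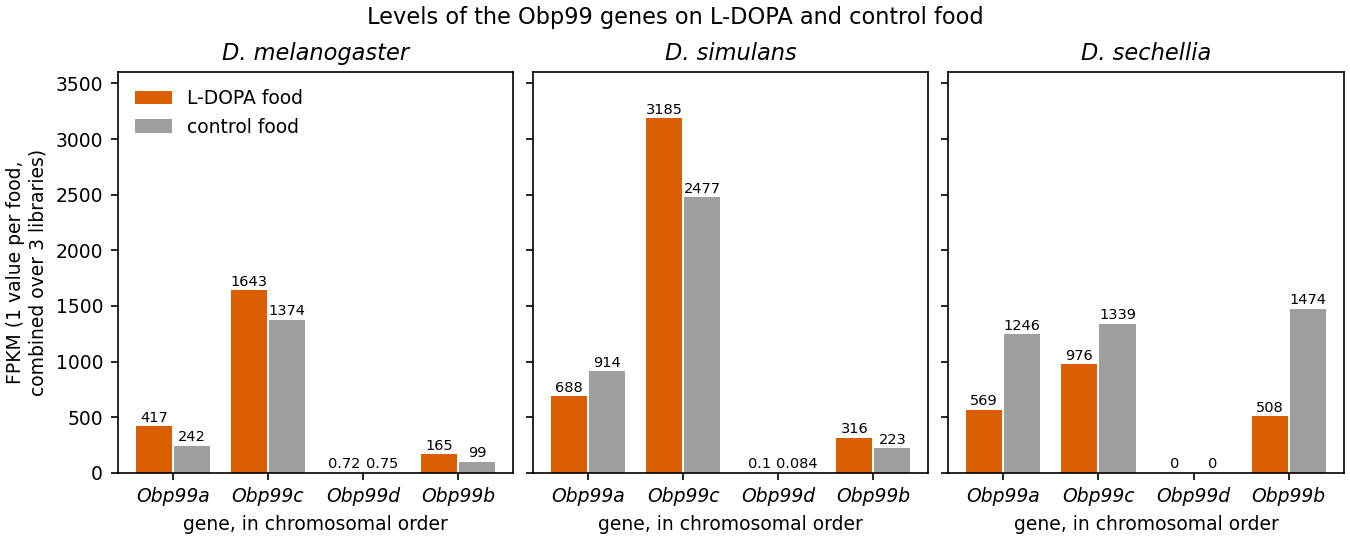
FPKM of the 4 *Obp99* genes in chromosomal order, on L-DOPA (left bar of each pair) and control food (right bar) in each species, 1 value per food combined over 3 libraries and so without an error bar. *Obp99c* is the highest bar in *D. melanogaster* and *D. simulans*, while in *D. sechellia* on control food *Obp99b* reached 1474 and *Obp99c* 1339.

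The question put to these values was how each species' transcripts differ after L-DOPA feeding. In *D. melanogaster*, all 3 expressed *Obp99* genes were higher on L-DOPA, and 2 of the 3 were past the fold limit. *Obp99a* was 1.72-fold higher on L-DOPA (log2 change 0.78) and *Obp99b* 1.66-fold higher (0.73). *Obp99c* was 1.20-fold higher (0.26), which is short of the limit. Among the 10229 *D. melanogaster* genes that met the FPKM minimum, 2.85% were at least 1.5-fold higher on L-DOPA and 1.65% at least 1.5-fold lower. Of the other genes, 154 had a higher log2 change than *Obp99a* and 184 a higher one than *Obp99b*. The median log2 change was 0.73 over the 3 members and 0.00 over all genes.

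In *D. simulans* the members did not share a direction, and none was past the fold limit. *Obp99b* was 1.42-fold higher on L-DOPA (log2 change 0.50) and *Obp99c* was 1.29-fold higher (0.36), while *Obp99a* was lower on L-DOPA (-0.41), its control level being 1.33 times its L-DOPA level. Over the 9249 genes of this table, 2.48% were at least 1.5-fold higher on L-DOPA and 2.15% at least 1.5-fold lower. Although they were short of the limit, the members lay toward the edges of a narrow distribution whose central 95% ran from -0.57 to 0.58. All 3 lay within that range. Of the 9246 other genes, 679 had a lower change than *Obp99a*, 292 a higher one than *Obp99b* and 515 a higher one than *Obp99c*. Compared with genes whose mean FPKM was within 2-fold of its own, *Obp99a* had a lower change than 224 of 229 genes. *Obp99b* had a higher change than 547 of 571 such genes. The median log2 change was 0.36 over the 3 members and -0.08 over all genes.

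In *D. sechellia*, all 3 expressed members were lower on L-DOPA, and 2 of the 3 were past the fold limit. The control level of *Obp99b* was 2.90 times its L-DOPA level (log2 change -1.54), and that of *Obp99a* was 2.19 times its L-DOPA level (-1.13). *Obp99c* was also lower on L-DOPA (-0.46), without reaching the limit. The summed FPKM of the 4 genes was 2053 on L-DOPA and 4059 on control food in *D. sechellia*, against 4189 and 3614 in *D. simulans* and 2225 and 1716 in *D. melanogaster*.

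Changes past the fold limit were common in *D. sechellia*, where 16.1% of 11560 genes were at least 1.5-fold higher on L-DOPA and 12.2% at least 1.5-fold lower. The central 95% of all changes ran from -1.60 to 1.25, and the changes of *Obp99a* and *Obp99b* both lay within it. The median log2 change was -1.13 over the 3 members and 0.10 over all genes. Of the other genes, 307 had a lower change than *Obp99b* and 520 a lower one than *Obp99a*. Of 423 genes at a similar level (a mean FPKM not more than 2-fold from that of *Obp99b*), 107 had a lower change, as did 119 of 457 for *Obp99a* and 153 of 367 for *Obp99c*. When genes whose symbols name rRNA, snRNA, snoRNA or tRNA were left out, a choice made after the values were seen, 12 of 320 such genes had a lower change than *Obp99b*, 22 of 354 a lower one than *Obp99a* and 66 of 277 a lower one than *Obp99c*.

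**Figure D2:**
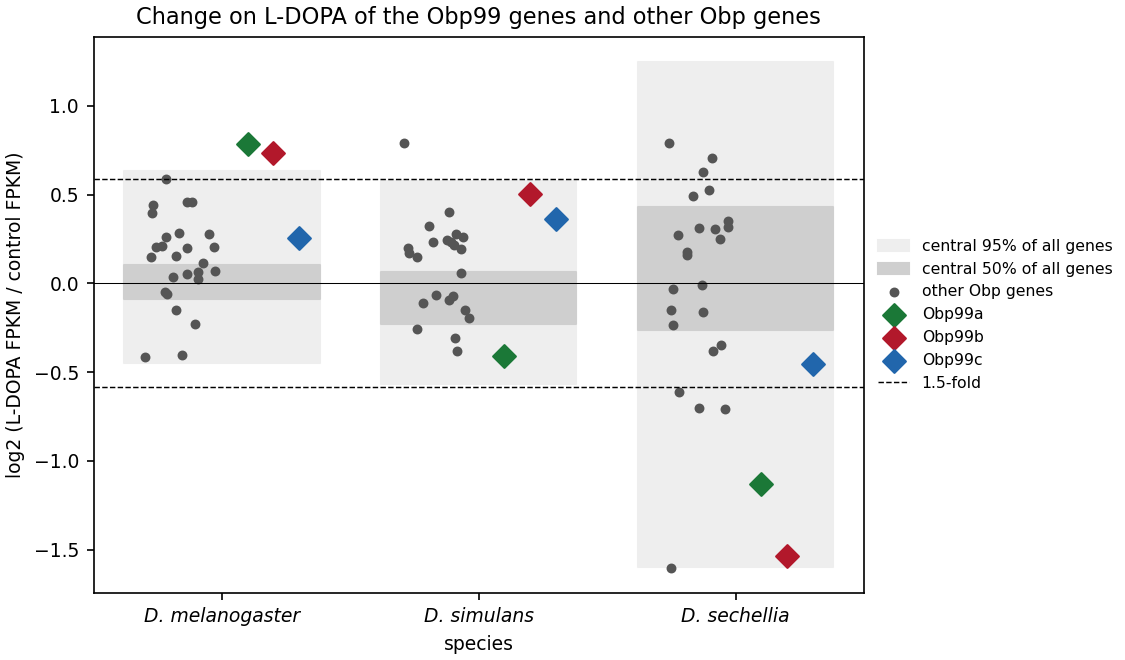
Log2 of L-DOPA over control FPKM for *Obp99a*, *Obp99b* and *Obp99c* (diamonds) and the other *Obp* genes that met the FPKM minimum (dots, spread sideways for legibility), with the central 50% and 95% of all such genes (dark and light grey bands) and the 1.5-fold limits (dashed). *Obp99a* and *Obp99b* lie above the light band in *D. melanogaster* and at -1.13 and -1.54 in *D. sechellia*, where the band is widest.

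Set side by side, the changes of *Obp99b* were 0.73 for *D. melanogaster*, 0.50 for *D. simulans* and -1.54 for *D. sechellia*, and those of *Obp99a* were 0.78, -0.41 and -1.13. The change of *Obp99b* was lower by 2.27 on the log2 scale in *D. sechellia* than in *D. melanogaster* (difference -2.27) and that of *Obp99a* by 1.92 (-1.92). For *Obp99c* the same difference was -0.71. No spread between libraries was at hand, so these differences were not tested. Among the 83 symbols shared by the 3 tables with an FPKM of at least 1 in each, the span between the highest and the lowest of the 3 changes was 2.27 for *Obp99b*, the 6th widest, and 1.92 for *Obp99a*, the 8th widest. The median span was 0.52, and that of *Obp99c* was 0.82. Besides *Obp99a* and *Obp99b*, the shared genes that were past the fold limit in one direction in one species and in the other direction in another were *Amy-d*, *CecA1* and *cid*, which encode an amylase, an antibacterial cecropin and the centromere histone.

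The shared gene with the log2 changes nearest to those of *Obp99a* over the 3 species was *Obp56h*, another odorant-binding protein gene, with changes of 0.46 for *D. melanogaster*, -0.07 for *D. simulans* and -0.70 for *D. sechellia* (Euclidean distance 0.64 over 3 values). Next came *Obp99b* (distance 1.00) and *RpS18*, a ribosomal protein gene (1.01). For *Obp99b* the nearest were *Obp99a* (1.00), *Obp56h* (1.05) and *Dat*, which encodes a dopamine N-acetyltransferase (1.11). The nearest to *Obp99c* were *cbt*, which encodes a zinc finger transcription factor (0.27), *Cat*, the catalase gene (0.37), and *Dat* (0.41). These distances rest on 3 values each and were taken over 82 other genes. *Obp* genes are a large part of this set, which holds 19 of them from outside the cluster. In *D. melanogaster*, *Obp56h* was close to the FPKM minimum, at 1.77 on L-DOPA and 1.29 on control food. The *Obp* gene *lush*, whose name differs between the species, was not in the set.

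Genes around the cluster were compared with it, since the members are interleaved with unrelated genes. In *D. melanogaster* the 8 genes between the members and the 5 on either side included 7 that met the FPKM minimum. The changes of these 7 ran from -0.12 to 0.21, and none was past the fold limit. Few genes were past it in this species, 2.85% of all upward and 1.65% downward. *Bub3*, a spindle checkpoint gene next to *Obp99a*, had an FPKM of 29.5 on L-DOPA and 31.1 on control food (-0.08). *Cap-D2*, a condensin subunit gene between *Obp99a* and *Obp99c*, had 6.05 on L-DOPA and 6.59 on control food (-0.12). *Dup99B*, a gene of the male ejaculatory duct that lies between *Obp99d* and *Obp99b*, is listed at 0 on L-DOPA and was at 0.275 on control food. *Dop1R2*, which encodes a dopamine receptor, is among the 5 genes before *Obp99a* and was at 0.290 on L-DOPA and 0.314 on control food.

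In *D. simulans* 10 of the 19 neighbouring genes met the FPKM minimum, with changes from -0.36 to 0.13 and none past the limit. Few genes were past it there either, 2.48% of all upward and 2.15% downward. In *D. sechellia* 11 of 17 neighbours met the minimum, and their changes ran from -0.60 to 1.08 with a median of 0.36. There 3 neighbours were past the limit upward and 1 downward, and of all genes in this species 16.1% were past it upward and 12.2% downward. Of the 7 genes between the members, 5 met the minimum, and these 5 were higher on L-DOPA, opposite in direction to *Obp99a*, *Obp99b* and *Obp99c*. Their changes ran from 0.01 to 0.84, where the median over all genes was itself 0.10 and the upper quartile 0.43. Only 1 of the 5 was past the limit. The highest FPKM of any neighbour in *D. sechellia* was 218, below *Obp99a*, *Obp99b* and *Obp99c* on either food.

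**Figure D3:**
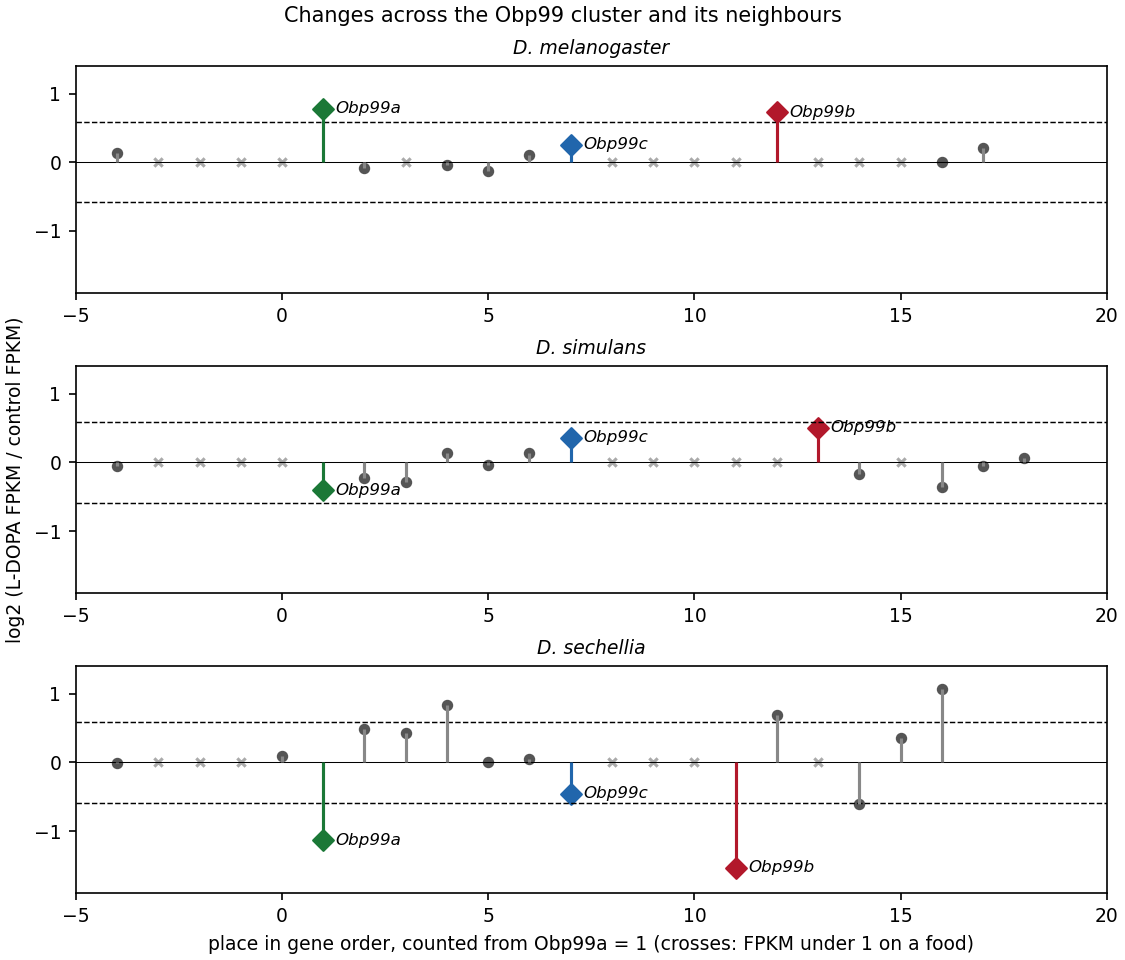
Log2 of L-DOPA over control FPKM for the *Obp99* genes (diamonds), the genes between them and the 5 genes on either side (dots), by place in gene order, with the 1.5-fold limits dashed and genes under an FPKM of 1 on a food drawn as crosses at 0. The neighbours of *D. melanogaster* stay between -0.12 and 0.21. In *D. sechellia* the 5 genes between the members that met the FPKM minimum lie from 0.01 to 0.84, while *Obp99a*, *Obp99b* and *Obp99c* lie below 0.

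The other odorant-binding protein genes were taken by symbol, all that start with *Obp* and a number together with *lush*, an *Obp* gene needed for pheromone detection. Any listed under another kind of name are missed. *Obp19b*, *Obp83a* and *Obp83b*, for example, are not found by symbol in *D. simulans*, so ranks and shares are over the genes found. There were 46 for *D. melanogaster*, 47 for *D. sechellia* and 43 for *D. simulans*. In *D. melanogaster* 26 of the 46 met the FPKM minimum. Of these, 1 was past the fold limit upward and none downward, where 2.85% of all genes were past it upward and 1.65% downward. The median change of the 26 was 0.15, against 0.00 over all genes. In all, 20 of the 26 were higher on L-DOPA, as the 3 expressed *Obp99* genes were, and 6 were lower. The largest change was that of *Obp83g*, at 11.5 on L-DOPA and 7.63 on control food (0.59), followed by *Obp56h* (0.46) and *Obp56a* (0.46). The lowest were *Obp57b* (-0.42), *Obp19c* (-0.41) and *Obp57c* (-0.23). Within the family of 29 expressed genes, *Obp99a* and *Obp99b* thus had the highest and next highest change of all.

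In *D. simulans* 23 of the 43 met the minimum, with 1 past the limit upward and none downward, where 2.48% of all genes were past it upward and 2.15% downward. The median change of the 23 was 0.17, against -0.08 over all genes, and 14 were higher on L-DOPA and 9 lower. The gene past the limit was *Obp56e*, at 439 on L-DOPA and 253 on control food (0.79). It was followed by *Obp84a* (0.40) and *Obp57c* (0.32), and the lowest were *Obp56a* (-0.38), *Obp19c* (-0.31) and *Obp8a* (-0.26). Among 26 expressed *Obp* genes, the change of *Obp99b* came after that of *Obp56e* alone, and that of *Obp99a* was the lowest of the 26.

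In *D. sechellia* 24 of the 47 met the minimum, 3 of them past the limit upward and 4 downward, with a median change of 0.17. In all, 13 of the 24 were higher on L-DOPA and 11 lower, and of all genes in this species 16.1% were past the limit upward and 12.2% downward. The highest changes were those of *Obp83g* (0.79), *Obp49a* (0.70) and *Obp59a* (0.63). The lowest was that of *Obp19c*, at 46.8 on L-DOPA and 142 on control food (-1.60), and next came *Obp57c* (-0.71) and *Obp56h* (-0.70) among the genes outside the cluster. Only *Obp19c* had a lower change than *Obp99b* among the 27 expressed *Obp* genes, and *Obp99a* followed. *Obp19c* was lower on L-DOPA in all 3 species, whereas *Obp99b* was lower in *D. sechellia* alone.

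Among the 19 other *Obp* symbols shared by the tables with an FPKM of at least 1 throughout, 7 were higher on L-DOPA in all 3 species, 3 were lower in all 3, and 9 had mixed directions. Of all 83 such shared genes, *Obp* genes included, 17 were higher in all 3 and 10 lower in all 3. None of the 19 was past the fold limit in opposite directions in 2 species, and only 5 of the 83 were, *Obp99a* and *Obp99b* among them. Of the 19, only *Obp19d* had the directions of *Obp99b* and *Obp99c* (higher, higher, lower), with changes of 0.12, 0.06 and -0.01. The gene *lush* is not among the 19, because it is named *Obp76a* in *D. simulans* and *D. sechellia*. It had the same directions, with changes of 0.29, 0.15 and -0.23. *Obp56h* alone among the 19 had the directions of *Obp99a*. These patterns were uncommon in the whole shared set too. With the members counted, 10 of the 83 genes had the directions of *Obp99a* and 8 those of *Obp99b* and *Obp99c*.

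The *Obp99* genes made up a large part of the summed FPKM of all *Obp* genes listed. They took 48.0% on L-DOPA and 41.9% on control food for *D. melanogaster*, 74.8% and 74.1% for *D. simulans* and 48.6% and 64.3% for *D. sechellia*. In *D. sechellia* the summed FPKM of the other *Obp* genes was 2173 on L-DOPA and 2254 on control food, a log2 change of -0.05, while that of the *Obp99* genes changed by -0.98. *Obp99c* had the highest FPKM of the listed *Obp* genes on both foods in *D. melanogaster* and *D. simulans*. In *D. sechellia*, *Obp99c* was the highest on L-DOPA and *Obp99b* on control food, where *Obp99b* ranked 4th on L-DOPA.

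**Figure D4:**
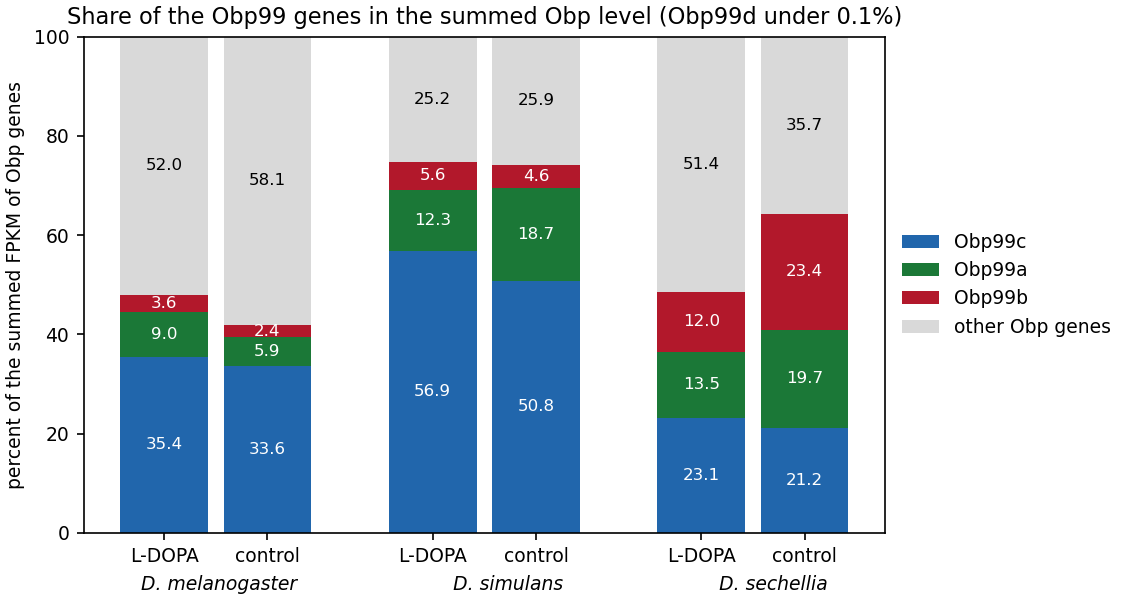
Share of *Obp99c*, *Obp99a*, *Obp99b* and all other listed *Obp* genes in the summed FPKM of the family, on L-DOPA (left bar of each pair) and control food (right bar) in each species. *Obp99b* holds 12.0% on L-DOPA and 23.4% on control food in *D. sechellia*, against 3.56% and 2.43% in *D. melanogaster*.

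Marker genes of tissues in which odorant-binding proteins are made were looked at beside these values, and their part in the changes was not tested. In *D. melanogaster* all 15 fat body genes met the FPKM minimum, 2 of them were past the fold limit upward and none downward, and the median change was 0.03. Those 2 were *Fbp1*, a larval serum protein receptor gene, at 19.7 on L-DOPA and 6.69 on control food (1.55), and *Fbp2*, at 44.4 on L-DOPA and 17.1 on control food (1.38). The summed FPKM of the fat body list was 2357 on L-DOPA and 2343 on control food. Of 12 genes of the olfactory antenna, 9 met the minimum, and all 9 were higher on L-DOPA, though none was past the limit. The median change was 0.20, and the summed FPKM of the list was 461 on L-DOPA and 412 on control food. This list includes *Obp* genes already counted above, among them *Obp19d* at 249 on L-DOPA and 229 on control food. *Orco*, the co-receptor of the odorant receptors, was at 2.82 on L-DOPA and 2.30 on control food. Of 8 genes of related carrier families, 6 met the minimum, and all 6 were higher on L-DOPA. One of them, *a10* (0.36), is also in the antennal list. Of these, *a5*, which encodes an antennal protein, was past the limit (0.64), and *EbpIII*, a chemosensory protein gene, was the most abundant at 1876 on L-DOPA and 1574 on control food (0.25). The yolk and eggshell genes of *D. melanogaster* had a median change of -0.59, with 8 of 15 past the limit downward. Over all genes of this species the median change was 0.00, and 2.85% were past the limit upward and 1.65% downward.

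In the other species few of these markers carry a gene name. In *D. simulans*, *Fbp2* was at 23.2 on L-DOPA and 15.4 on control food (0.59). The antennal genes *Obp69a*, *Obp19d* and *Obp28a*, which are also among the other *Obp* genes counted above, had changes of 0.24, 0.06 and 0.23 there. In *D. sechellia*, 5 antennal genes, all of them *Obp* genes counted above, had a summed FPKM of 380 on L-DOPA and 404 on control food. Most of that sum was *Obp19d*, at 259 on L-DOPA and 261 on control food. Of the 5, *Obp83b* was past the limit downward (-0.61), as were 12.2% of all genes there. None of the listed fat body genes is named in the *D. sechellia* table. *Yp2*, which is made in the female fat body and ovary, had a change of -0.23 in *D. melanogaster*. The other yolk protein genes there, *Yp1* and *Yp3*, had changes of -0.19 and 0.03. The change of *Yp2* was 0.48 in *D. simulans*, where the other named genes of the list, the eggshell genes *Cp16* and *dec-1*, had changes of -0.09 and -0.30. In *D. sechellia*, where it was the only gene of the list named, its change was -0.78.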

How the data were processed

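Whole adult females of 3 species were sequenced in 18 libraries, 3 per food and species. According to the study's methods, single-end reads were aligned with Bowtie2 at its default settings to the Ensembl genomes BDGP6, dsec_caf1 or ASM75419v3 and quantified with Cuffdiff under Ensembl annotations, with geometric normalization and gene length correction. Tool versions are not given in the sources used here. The authors' deposited FPKM values, 1 per gene and food, combine 3 libraries, and the tables hold no SD, interval or depth. Depths of single libraries were not used here. The tables also hold the authors' fold change, test score, p and q columns, which were not used.

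Log2 changes were computed without a pseudocount for genes of any FPKM, and counted at a fold limit of 1.5 among genes that reached an FPKM of 1 on each of the foods. The members and gene lists were chosen with earlier results of these data known. Other *Obp* genes named are the 3 highest and 3 lowest changes per species, and neighbours are named by position or after their values were seen. For each member, the 3 shared genes with the nearest changes are named, and marker genes are named by highest FPKM or after their values were seen. *D. melanogaster* coordinates are from Ensembl release 115 and others from the tables, with starts counted from 1. Alternatives were another fold limit (2), other FPKM minimums (10, or above 0), pseudocounts (1 and 0.1) and centring on the median gene. Leaving out small RNA genes, or *Obp* genes that share a listed span, was added after the data were seen. Sequences are not printed here. The counting was tested on simulated data. Python 3.11.15, numpy 2.4.6, pandas 2.3.3 and matplotlib 3.10.9 were used.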

Additional observations from a re-analysis of the deposited data

How the results depend on the processing

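The 11 changes of the members that could be computed were recomputed with pseudocounts of 1 and 0.1 FPKM, centred on the median gene, and read at a fold limit of 2. Pseudocounts and the limit cannot turn a direction. Centring could, and it turned none of the 11. Of the 44 readings, 42 stayed on their side of the fold limit, but most had little room to move. Pseudocounts and a higher limit can only make a change fall short, so they could move only the changes past 1.5-fold. The 2 readings that moved were those of *Obp99a* (log2 change 0.78) and *Obp99b* (0.73) in *D. melanogaster*, which are short of a fold limit of 2. *Obp99a* and *Obp99b* in *D. sechellia* stayed past it. *Obp99b* in *D. simulans* only just stayed short of the 1.5-fold limit when centred, at 0.5848 against 0.5850 for the limit. *Obp99d* in *D. sechellia*, listed at 0 on both foods, gave no value.

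The counts of all genes past the fold limit were 461 for *D. melanogaster*, 428 for *D. simulans* and 3278 for *D. sechellia*. In that order they were 178, 168 and 2072 with an FPKM of at least 10, and 152, 109 and 1189 at a fold limit of 2. With any FPKM above 0 they were 1981 in *D. melanogaster* and 1872 in *D. simulans*. Centring on the median gene moved the share of these genes that was higher on L-DOPA to 70.0% in *D. simulans*, against 53.5% uncentred, and to 44.1% in *D. sechellia*, against 56.9% uncentred. The number of other *Obp* genes past the limit was 1 for *D. melanogaster*, 1 for *D. simulans* and 7 for *D. sechellia*. It was 0 in *D. melanogaster* and 4 in *D. sechellia* with an FPKM of at least 10. With any FPKM above 0 it was, in that order, 8, 7 and 11, and at a fold limit of 2 it was 0, 0 and 1. The minimums and the limit change which genes are counted, and centring changes the scale. No library could be left out, and no paired analysis was possible because the tables hold 1 value per food.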
